A study of Mus musculus with 231 samples.

Results

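The comparison described here is that of CM and Ctrl mice of the training cohort at month 5, by microRNA sequencing of peripheral blood mononuclear cells (PBMC). Libraries were chosen by the cohort, month and arm given in their labels, which gave 12 of the 231 libraries of the series, 5 from CM mice (3334, 3336, 3341, 3368 and 3370) and 7 from Ctrl mice (3335, 3339, 3340, 3342, 3346, 3349 and 3350), with 1 library per mouse. CM mice were C57BL/6 mice of genotype Cbfb56M/+/Mx1-Cre, in which poly(I:C) switches on the fusion gene Cbfb-MYH11 (CM), which corresponds to the fusion of human acute myeloid leukemia (AML) with inv(16). Mice of both arms received the same 7 intraperitoneal doses of poly(I:C), 14 mg/kg every other day, at 6 to 8 weeks of age. The Mx1 promoter that drives Cre responds to interferon and is not restricted to blood cells, and poly(I:C) itself induces interferon in both arms. Genotype was coded as CHW in every CM mouse and as CW, HW or WT among Ctrl mice, with no key to the codes. Per the labels Ctrl littermates lacked the transgene, whereas the methods of the study also list littermates with the knock-in allele and no Cre. CM mice were 2 females and 3 males, and Ctrl mice were 2 females and 5 males. The methods of the study speak of pooled total RNA as input to small RNA libraries, whereas each library here carries the number of 1 mouse.

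MiRNAs are short RNAs cut from hairpin precursors. A precursor can release a mature strand from either arm, named -5p and -3p, and the mature strand pairs through its seed, bases 2 to 8, with messenger RNAs, which are then translated less or degraded. Each blood lineage carries its own abundant miRNAs: miR-144, miR-451a and miR-486 in red cells and their precursors, miR-150 in mature lymphocytes, miR-223 in granulocytes and monocytes, and miR-126 in hematopoietic stem and progenitor cells, platelets and endothelium. MiR-126 lies in an intron of Egfl7, restrains cell cycle entry of hematopoietic stem cells and is high in inv(16) AML.

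Of 515 miRNAs tested among 12 or 10 libraries, 422 were matched by name to a mature sequence of RefSeq (GRCm38.p6), and those the results turn on are printed 5′ to 3′ with the seed in capitals. The first is the leading strand of miR-126, from chromosome 2, 26591402-26591423, plus strand. The next 3 come from the erythroid cluster on chromosome 11, between 78073010 and 78073207, plus strand, and are shown because they differ in seed although they share a primary transcript.
miR-126a-3p: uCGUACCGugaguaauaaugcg
miR-144-5p: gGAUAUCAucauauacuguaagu
miR-144-3p: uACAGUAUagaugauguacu
miR-451a: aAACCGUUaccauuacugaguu
Of other miRNAs higher in CM, miR-499-5p (chromosome 2, 155622893-155622913, plus strand), miR-31-5p (chromosome 4, 88910614-88910635, minus strand) and miR-331-3p (chromosome 10, 93963783-93963803, minus strand) shared no seed with each other or with miR-126a-3p.
miR-499-5p: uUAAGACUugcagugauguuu
miR-31-5p: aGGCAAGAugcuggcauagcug
miR-331-3p: gCCCCUGGgccuauccuagaa
Of miRNAs lower in CM, miR-500-3p and miR-532-3p lie in the miR-188 cluster on chromosome X, minus strand, with miR-501-3p, which has the seed of miR-500-3p. MiR-1249-3p (chromosome 15, 84951545-84951566, minus strand), miR-345-5p (chromosome 12, 108836989-108837010, plus strand) and miR-33-5p (chromosome 15, 82198127-82198147, plus strand) lie elsewhere.
miR-500-3p: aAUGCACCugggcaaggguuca
miR-501-3p: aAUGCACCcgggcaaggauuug
miR-532-3p: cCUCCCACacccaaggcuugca
miR-1249-3p: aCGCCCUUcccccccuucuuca
miR-345-5p: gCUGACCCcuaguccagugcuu
miR-33-5p: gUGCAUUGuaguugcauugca
MiR-99a-5p, miR-99b-5p and miR-100-5p, which mark stem and progenitor cells, have 1 seed in common and are shown because their levels in CM did not move together.
miR-99a-5p: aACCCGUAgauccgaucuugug
miR-99b-5p: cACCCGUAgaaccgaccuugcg
miR-100-5p: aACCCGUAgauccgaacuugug

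Total counts per library lay between 4935275 and 7151521, and log2 total count was 0.02 higher in CM (exact two-sided permutation test, p = 0.864). Counts below are given as CPM, counts per 1000000 after scaling by TMM (trimmed mean of M-values), and fold changes are on the log2 scale, CM over Ctrl, with the standard error (SE) of edgeR's quasi-likelihood fit. The labels of 2 mice were in doubt. The library titles carry running numbers. For Ctrl mouse 3335 they were 1 to 6 up to month 5 and above 100 afterwards, whereas for CM mouse 3334 they were above 100 up to month 5 and then 7 and 8, so the runs of these mice cross between months 5 and 6. Each comparison is therefore given over all 12 libraries and again over the 10 libraries without these mice (4 CM, 6 Ctrl). CM mouse 3370 also stood apart. It had the lowest median correlation with the other libraries, 0.959 against 0.971 to 0.981 in the rest (Pearson's r across miRNAs, which are not independent replicates), and results that rest on it are given with and without it. Bulk PBMC cannot tell fewer cells of a type apart from less RNA per cell, and p-values within month 5 measure the spread between mice.

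Among 12 libraries, miR-126a-3p, miR-126a-5p, miR-499-5p and miR-31-5p had higher means in CM and miR-532-3p, miR-1249-3p and miR-500-3p lower means, but no miRNA passed the threshold. Of 505 miRNAs tested, 0 (0%) had a Benjamini-Hochberg adjusted p under 0.05 by edgeR, with the smallest at 0.112, and 21.4% had an unadjusted p under 0.05. Of those tested, 59 (11.7%) were higher in CM at that level and 49 (9.7%) lower. DESeq2 called 21 on the same libraries, 9 higher and 12 lower, and limma-trend and edgeR on the deposited CPM called 0. Without Ctrl mouse 3335 alone, edgeR called 46, 26 higher and 20 lower, and without CM mouse 3368 it called 4, 1 higher and 3 lower. The median fold change of all miRNAs tested was 0.001 on the log2 scale.

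The arms did not overlap for 8 of the 505 miRNAs (1.58%). MiR-1191a, miR-132-5p and miR-145a-3p were higher in every CM mouse than in every Ctrl mouse, and miR-532-3p, miR-5099, miR-1943-5p, miR-378b and miR-7046-3p were lower. MiR-132 is induced in immune cells by inflammatory signals and miR-145a is a miRNA of smooth muscle. These 8 were named because the count is small, after their values were seen.

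Without mice 3334 and 3335, the same fit called 51 of 511 miRNAs (9.98%), 35 higher in CM (6.85%) and 16 lower (3.13%), with 154 at an unadjusted p under 0.05. DESeq2 called 83, including 48 of the 51. The arms did not overlap for 52 of 511 (10.2%), 27 higher and 25 lower. Of the 51 called, 50 had the same sign among 12 libraries and 1 was not tested there, 48 had an unadjusted p under 0.05 there, and 4 had arms that did not overlap there.

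**Figure D1:**
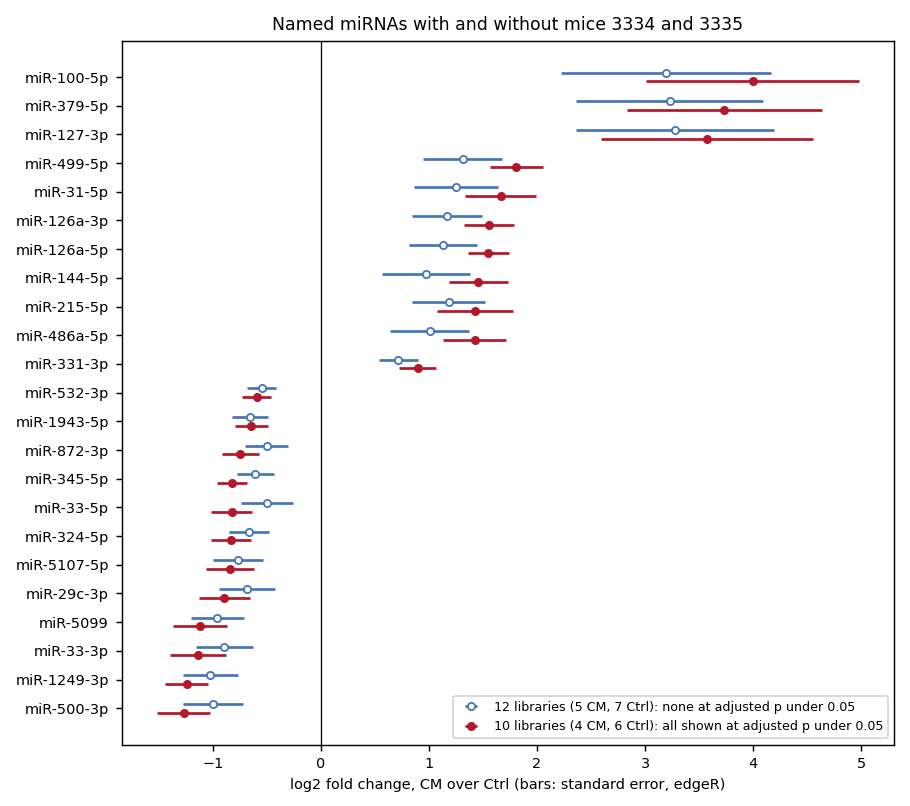
Log2 fold change (CM over Ctrl, x axis) with its SE from edgeR for the miRNAs named by rank, 1 per line, over 12 libraries (open blue) and over 10 libraries without mice 3334 and 3335 (filled red). All have the same sign in both sets. None passed at an adjusted p under 0.05 among 12 libraries, and all shown passed among 10. The widest bars belong to miR-100-5p, miR-379-5p and miR-127-3p, whose highest CM value was that of mouse 3370.

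The number of calls depended on single mice. With each of the 10 mice left out in turn, edgeR called between 3 and 60 miRNAs. It called 3 without CM mouse 3336, 3 without CM mouse 3341, 6 without Ctrl mouse 3349, 7 without Ctrl mouse 3340, 10 without Ctrl mouse 3339 and 23 without Ctrl mouse 3342, against 41 to 60 without any of the other mice. Only 3 of the 51 were called in all 10 of these fits: miR-126a-3p, miR-126a-5p and miR-499-5p. MiR-1249-3p, miR-331-3p and miR-345-5p were each called in 8, miR-144-5p in 6, and miR-31-5p, miR-500-3p, miR-33-5p and miR-5099 in 5, while 34 of the 51 were called in 4 or fewer.

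**Figure D2:**
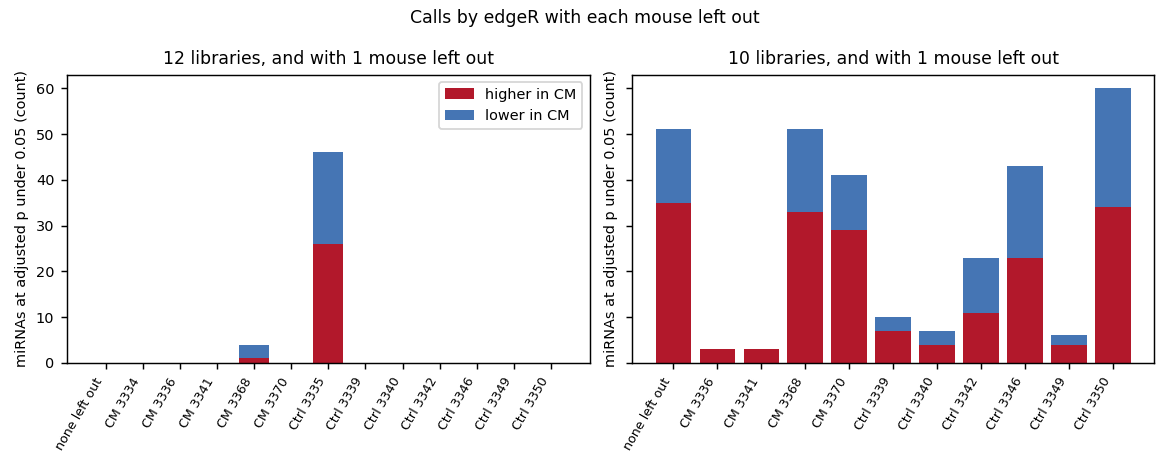
Number of miRNAs at an adjusted p under 0.05 by edgeR (y axis), higher in CM (red) and lower in CM (blue), with no mouse left out and with each mouse left out in turn (x axis), for 12 libraries (left) and 10 libraries (right). Among 12 libraries only the fits without Ctrl mouse 3335 (46) and without CM mouse 3368 (4) called any, and among 10 libraries the count ranged from 3 to 60.

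MiR-126a-3p, which holds hematopoietic stem cells in quiescence, was at 136.3 CPM in CM mouse 3334, 231 in 3336, 406 in 3341, 216 in 3368 and 454 in 3370. Its Ctrl levels ran from 82.8 to 235 CPM with a median of 117.2. The Ctrl maximum came from mouse 3335, the other 6 Ctrl mice reached at most 138.9, and the lowest CM value came from mouse 3334, so the arms overlapped only through these 2 mice. The fold change was 1.17 ± 0.32 (SE, n = 5 and 7, edgeR unadjusted p = 0.00311, adjusted p = 0.112) among 12 libraries. Among 10 libraries it was 1.56 ± 0.23 (edgeR adjusted p = 0.00600), and it passed with each of these mice left out (1.39 to 1.72).

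MiR-126a-5p, the strand released from the other arm of the same hairpin, was at 89.1, 161, 268, 151 and 259 CPM in CM mice 3334, 3336, 3341, 3368 and 3370. Its Ctrl levels ran from 50.8 to 164 CPM with a median of 74.6, and the highest was again in mouse 3335. Without mouse 3335 the Ctrl maximum was 80.9, below every CM mouse, so the arms overlapped only through that mouse. On the log2 scale CM over Ctrl was 1.13 ± 0.31 among 12 libraries (edgeR unadjusted p = 0.00327, adjusted p = 0.112) and 1.55 ± 0.19 among 10 (edgeR adjusted p = 0.00365).

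In the second table of the cohort, the deposited CPM, miR-126a-3p was at 144.5, 259, 463, 236 and 526 in CM mice 3334, 3336, 3341, 3368 and 3370, and in Ctrl mice it ran from 95.4 to 259 with a median of 133.97. The difference in mean log2(CPM + 1) was 1.08 (exact two-sided permutation test over 792 splits, p = 0.0177), and it was 0.87 to 1.34 with each mouse left out (exact permutation p = 0.00433 to 0.0394). Without mice 3334 and 3335 it was 1.49 (exact permutation p = 0.00476, the smallest that 210 splits allow). This test takes 1 miRNA on its own, so its p is not adjusted over miRNAs as that of edgeR is.

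**Figure D3:**
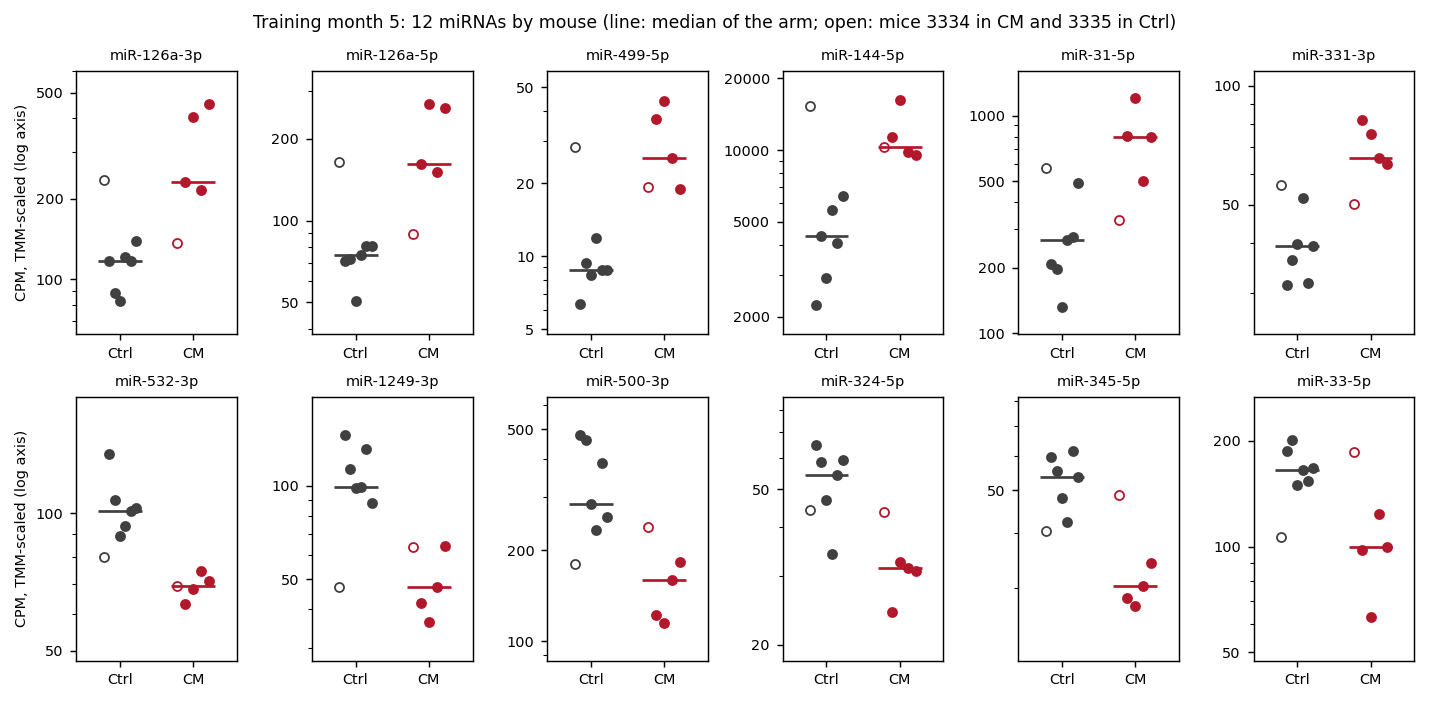
Levels of 12 miRNAs in the 12 libraries, as TMM-scaled CPM on a log axis, by arm (x axis), with 1 point per mouse and a line at the median of the arm. Open points are CM mouse 3334 and Ctrl mouse 3335. For miR-126a-3p, the CM median of 231 lies above the Ctrl median of 117.2, and the open Ctrl point at 235 lies among the CM points.

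Among 10 libraries 5 of 7 red cell miRNAs were called as higher in CM, against 6.85% of all miRNAs. They were miR-144-5p and strands of miR-486a and miR-486b, with miR-451a and miR-144-3p not called. MiR-144-5p was at 10316, 11345, 16203, 9850 and 9564 CPM in CM mice 3334, 3336, 3341, 3368 and 3370. In Ctrl mice it ran from 2244 to 15251 CPM with a median of 4357, and without mouse 3335 the Ctrl maximum was 6411. Every CM library was thus above 6 of the 7 Ctrl libraries, and mouse 3335 was above 4 of the 5 CM libraries. The fold change was 0.97 ± 0.41 among 12 libraries (edgeR adjusted p = 0.21) and 1.46 ± 0.28 among 10 (edgeR adjusted p = 0.0211).

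MiR-486b-5p, which accumulates during terminal red cell maturation, was at 35296, 37408, 65772, 32474 and 33481 CPM in CM mice in the same order. Its Ctrl levels ran from 10949 to 48400 CPM with a median of 21056.7, and the arms overlapped through mouse 3335 and by a small margin through mouse 3350 (32661). On the log2 scale CM over Ctrl was 0.81 ± 0.36 among 12 libraries (edgeR adjusted p = 0.227) and 1.14 ± 0.32 among 10 (edgeR adjusted p = 0.0491), and it was called in 1 of the 10 fits with a mouse left out. MiR-486a is nearly identical to miR-486b, and the authors' counting could split reads between them, so their separate values are uncertain.

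MiR-451a, which is cut by Ago2 without Dicer, was at 104803, 67653, 109620, 66566 and 78311 CPM in the CM mice and at 32667 to 108790 CPM, with a median of 50110, in the Ctrl mice. The arms overlapped both with and without the 2 mice in doubt, since Ctrl mouse 3350 had 75838. Its fold change was 0.54 ± 0.30 among 12 libraries (edgeR adjusted p = 0.309) and 0.68 ± 0.25 among 10 (edgeR adjusted p = 0.11). MiR-144-3p, with 0.93 ± 0.28 among 10 libraries (edgeR adjusted p = 0.0568), did not pass either.

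Of the 7 erythroid miRNAs tested, 6 had an unadjusted p under 0.05 among 12 libraries, all higher in CM, against 11.7% of all miRNAs. The median fold change was 0.96 against 0.001 for all miRNAs tested. Among 10 libraries 5 of the 7 were called, all higher, against 6.85% of all miRNAs, with a median of 1.32 against -0.03 for all. Apart from miR-144-5p, those called were strands of the nearly identical miR-486a and miR-486b, so they are not separate results. The 5p strands of miR-486a and miR-486b had the same mean in the deposited CPM (29350). Their 3p strands were not called by edgeR on the deposited CPM as reads. The summed level of the 7 miRNAs was 125637 to 213538 CPM in CM and 51327 to 129264 CPM in 6 Ctrl mice, and it was 197201 CPM in Ctrl mouse 3335. With each of the 10 mice left out, 0 to 6 of the 7 were called: 0 without CM mouse 3336 or 3341 or Ctrl mouse 3340 or 3349, 1 without Ctrl mouse 3339 and 3 without Ctrl mouse 3342. With the list left out before scaling, edgeR called 39 miRNAs among 10 libraries and 0 among 12. The part of red cell content in the other differences was not tested.

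MiR-499-5p, encoded in an intron of Myh7b and known from heart and slow muscle, was at 19.3, 37, 44, 25.6 and 19 CPM in CM mice 3334, 3336, 3341, 3368 and 3370. Its Ctrl levels ran from 6.33 to 28.2 CPM with a median of 8.79. All CM values were above those of 6 Ctrl mice, the highest of which was 11.9, and mouse 3335 lay within the CM range. The fold change was 1.31 ± 0.37 among 12 libraries (edgeR adjusted p = 0.112) and 1.81 ± 0.25 among 10 (edgeR adjusted p = 0.00434).

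MiR-31-5p, a regulator of cell motility and of T cell activation, was at 332, 804, 1209, 502 and 798 CPM in CM mice in that order, and at 131.5 to 574 CPM, with a median of 269, in Ctrl mice. Mouse 3334 was the lowest CM and mouse 3335 the highest Ctrl, and without them the CM minimum of 502 was just above the Ctrl maximum of 490. Its log2 fold change was 1.25 ± 0.39 among 12 libraries (edgeR adjusted p = 0.132) and 1.66 ± 0.33 among 10 (edgeR adjusted p = 0.0223).

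MiR-331-3p was at 50.2, 82.1, 75.6, 65.6 and 63.4 CPM in CM mice in that order and at 31.3 to 56.3 CPM, with a median of 39.4, in Ctrl mice. The arms overlapped by mouse 3334, mouse 3335 and Ctrl mouse 3346 (52.1). Its log2 fold change was 0.72 ± 0.18 among 12 libraries (edgeR adjusted p = 0.112) and 0.90 ± 0.17 among 10 (edgeR adjusted p = 0.0211). Its partner strand miR-331-5p was also called among 10 libraries (0.79 ± 0.20, edgeR adjusted p = 0.032).

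Other miRNAs called as higher among 10 libraries included both strands of miR-30a, the epithelial miRNA miR-203-3p and the miR-106b cluster strand miR-106b-3p. The fold changes were 0.95 ± 0.22 for miR-30a-5p, 1.11 ± 0.26 for miR-30a-3p, 0.64 ± 0.15 for miR-203-3p and 1.10 ± 0.26 for miR-106b-3p. MiR-215-5p, a target of p53, was called with 1.42 ± 0.35 (edgeR adjusted p = 0.032), but its arms overlapped in both sets, since 2 CM mice (9.55 and 9.96 CPM) lay below the Ctrl maximum of 10.99.

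Among miRNAs lower in CM, miR-1249-3p was at 63.7, 41.9, 36.5, 47.1 and 63.9 CPM in CM mice 3334, 3336, 3341, 3368 and 3370. It ran from 47.1 to 144.8 CPM with a median of 99.1 in Ctrl mice. The Ctrl minimum was mouse 3335, and the other 6 Ctrl mice started at 87.8, above every CM mouse. Its log2 fold change was -1.02 ± 0.26 among 12 libraries (edgeR adjusted p = 0.112) and -1.24 ± 0.20 among 10 (edgeR adjusted p = 0.00991).

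MiR-500-3p, of the miR-188 cluster in an intron of Clcn5, was at 238, 122.7, 115.2, 159 and 183 CPM in CM mice in that order and at 180 to 481 CPM, with a median of 284, in Ctrl mice. The arms overlapped through mice 3334 and 3335, and without them the CM maximum of 183 lay below the Ctrl minimum of 233. The difference was -0.996 ± 0.28 among 12 libraries (edgeR adjusted p = 0.112) and -1.27 ± 0.25 among 10 (edgeR adjusted p = 0.0215).

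MiR-532-3p of the same cluster was at 69.3, 63.4, 68.2, 74.7 and 70.9 CPM in the CM mice and at 80.3 to 134.9 CPM, with a median of 101.3, in the Ctrl mice. The arms did not overlap in either set, and the fold change was about the same in both: -0.55 ± 0.13 among 12 libraries (edgeR adjusted p = 0.112) and -0.59 ± 0.13 among 10 (edgeR adjusted p = 0.0281). Of 8 members of the cluster tested, 2 were called among 10 libraries, both lower, against 3.13% of all miRNAs. The median of the 8 was -0.28 against -0.03 for all. The member with the seed of miR-500-3p, miR-501-3p, had -0.20 ± 0.14 (edgeR adjusted p = 0.359) and overlapped between arms.

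MiR-345-5p was at 48.9, 28.5, 27.3, 30.3 and 34.2 CPM in the CM mice and at 40.3 to 61.3 CPM, with a median of 53.5, in the Ctrl mice, and the arms overlapped through mouse 3334. Its fold change was -0.61 ± 0.17 among 12 libraries (edgeR adjusted p = 0.115) and -0.83 ± 0.14 among 10 (edgeR adjusted p = 0.011). Both strands of miR-33, which lies in an intron of Srebf2 and restrains cholesterol efflux, were called as lower among 10 libraries. MiR-33-5p was at 186, 97.5, 63, 124.2 and 99.4 CPM in the CM mice and at 106.1 to 201 CPM, with a median of 166, in the Ctrl mice. Here mouse 3334 had a value within the range of the 6 Ctrl mice and mouse 3335 one within that of the 4 CM mice. Its log2 fold change was -0.50 ± 0.24 among 12 libraries (edgeR adjusted p = 0.251) and -0.83 ± 0.19 among 10 (edgeR adjusted p = 0.0281), and for miR-33-3p it was -1.14 ± 0.26 among 10 (edgeR adjusted p = 0.0281).

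MiR-324-5p, which lowers hedgehog signaling, had -0.83 ± 0.18 among 10 libraries (edgeR adjusted p = 0.0281), miR-872-3p had -0.75 ± 0.17 (edgeR adjusted p = 0.0283) and miR-1943-5p had -0.64 ± 0.15 (edgeR adjusted p = 0.032). MiR-29c-3p, of a family that represses DNA methyltransferases and Mcl1, was called with -0.89 ± 0.23 (edgeR adjusted p = 0.0376), with arms that overlapped in both sets. MiR-5107-5p was called with -0.84 ± 0.22 (edgeR adjusted p = 0.0395). MiR-29c-3p and miR-5107-5p were each called in 3 of the 10 fits with a mouse left out. Neither was called by edgeR on the deposited CPM as reads. MiR-5099 was at 13589 to 20455 CPM in CM and at 20658 to 55232 CPM in Ctrl, with no overlap in either set and -1.12 ± 0.25 among 10 (edgeR adjusted p = 0.0281). The tables of the cohort differ widely in the level of miR-5099, so its value is uncertain.

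The 2 mice in doubt were compared with the rest. Of the 18 named miRNAs whose arms did not overlap among 10 libraries, Ctrl mouse 3335 lay within the range of the 4 other CM mice for 9 and within that of the 6 other Ctrl mice for 2. CM mouse 3334 lay within the range of the CM mice for 4 and within that of the Ctrl mice for 9. These counts are a description of 2 libraries and assign neither mouse to an arm. For miR-144-5p, miR-499-5p and miR-1249-3p, mouse 3334 was within the CM range, and for miR-126a-3p, miR-500-3p and miR-33-5p it was within the Ctrl range.

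Library titles also carry a G number whose meaning is not given. G1, G3 and G4 each held 1 CM and 1 Ctrl mouse and G7 held 1 CM and 3 Ctrl mice. Within these, the log2 difference of miR-126a-3p was 1.95, 1.79, 0.71 and 0.66, that of miR-499-5p was 1.45, 2.21, 1.12 and 0.75, and that of miR-144-5p was 2.09, 1.99, 1.82 and 0.45. MiR-1249-3p gave -1.17, -1.81, -0.61 and -0.77. All 4 miRNAs kept the direction of their arm difference in every G number, with too few mice in each for a test. The CM mouse of G4 was 3334 and a Ctrl mouse of G7 was 3335, the mice in doubt. Not all miRNAs called among 10 libraries kept their direction. MiR-33-5p was at 0.31 and miR-345-5p at 0.02 in G4, and miR-379-5p was at -0.14 in G7. Each of these kept its direction in the other G numbers. MiR-127-3p was at -0.15 in G4 and -0.08 in G7. With G number as a covariate, edgeR called 10 miRNAs among 10 libraries, 9 of them among the 51: miR-126a-3p, miR-126a-5p, miR-499-5p, miR-1249-3p, miR-144-5p, miR-30a-5p, miR-31-5p, miR-486b-5p and miR-99a-5p. In that fit CM mouse 3336 and Ctrl mice 3342 and 3350 were each alone in their G number and did not bear on the arm difference. With sex as a covariate edgeR called 38.

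The largest fold changes of named miRNAs, those of miR-100-5p, miR-379-5p and miR-127-3p, had their highest value in 1 animal. CM mouse 3370 had 6 miRNAs at more than 4 times the level of the next library, whereas the other 11 libraries had 0 or 1 each. MiR-199b-3p was at 1314 CPM in this mouse and at 8.80 to 28.4 CPM in the others. MiR-100-5p was at 380 CPM against 4.79 to 47.9 CPM, and miR-379-5p, miR-127-3p and miR-411-5p were at 82.3, 80.1 and 68.2 CPM against at most 7.74, 4.98 and 5.71 CPM. The last 3 belong to the imprinted Dlk1-Dio3 locus, which holds the largest miRNA cluster on mouse chromosome 12 and is active in embryonic, neural and mesenchymal tissue and in some leukemias. MiR-199b is abundant in mesenchymal cells.

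Of 77 names of the Dlk1-Dio3 locus in the count table, only 4 passed the filter on low counts. All 4 had an unadjusted p under 0.05 among 12 libraries, against 21.4% of all miRNAs. Among 10 libraries 3 were called as higher (median fold change 3.43), against 6.85% of all miRNAs. Without mouse 3370 as well, 1 was called, miR-379-5p, at 1.59 on the log2 scale (edgeR adjusted p = 0.0392), and the median was 1.11. None of the 4 was called by edgeR without CM mouse 3336 or 3341 or Ctrl mouse 3339, 3340, 3342, 3349 or 3350, although all 4 then had an unadjusted p under 0.05, and 1 was called without Ctrl mouse 3346. The summed level of all 77 names was 371 CPM in mouse 3370, 39.6 CPM in CM mouse 3341 and 8.46 to 19.8 CPM in the other 10 mice.

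Stem and progenitor cell miRNAs with the shared seed differed among themselves. MiR-99a-5p was at 3323, 3854, 4112, 4091 and 4824 CPM in CM mice 3334, 3336, 3341, 3368 and 3370 and at 1821 to 4200 CPM, with a median of 2157, in Ctrl mice. Ctrl mice 3335 and 3350 lay among the CM mice and the other 5 Ctrl mice lay below them. It was called among 10 libraries (0.84 ± 0.23, edgeR adjusted p = 0.0407) but not without mouse 3370 (edgeR adjusted p = 0.085). MiR-99b-5p had 0.10 ± 0.23 (edgeR adjusted p = 0.776), and miR-100-5p fell from 4.00 to 1.71 on the log2 scale without mouse 3370 (edgeR adjusted p = 0.0834). MiR-196b-5p, of the Hox clusters, was called with 1.02 ± 0.28 among 10 libraries (edgeR adjusted p = 0.0473) and stayed so without mouse 3370. In all, 3 of 9 listed members were called, all higher (median 0.45), against 6.85% of all miRNAs. Without mouse 3370 (median 0.12) or mouse 3368, 1 of 9 was called. None was called by edgeR without CM mouse 3336 or 3341 or Ctrl mouse 3339, 3340, 3342, 3346 or 3349, with 3 higher at an unadjusted p under 0.05 in each of these fits.

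Lineage miRNAs of white cells gave no calls. Among 10 libraries 9.98% of all miRNAs were called. With 6 lymphocyte and 2 myeloid miRNAs tested, a count of 0 lies near that share. MiR-150-5p, a regulator of Myb in mature lymphocytes, was at 23725, 28088, 20198, 28681 and 34310 CPM in the CM mice and at 22488 to 48115 CPM, with a median of 28684, in the Ctrl mice. The arms overlapped widely, and the fold change was -0.38 ± 0.23 among 10 libraries (edgeR adjusted p = 0.282). None of 6 lymphocyte miRNAs was called in either set by edgeR and DESeq2 called 0. In either set 0 of 6 had an unadjusted p under 0.05, against 21.4% of all miRNAs among 12 libraries. The median was -0.24 among 10 libraries. MiR-223-3p, the granulocyte and monocyte miRNA, was at 5472 to 9201 CPM in CM mice and at 4008 to 22908 CPM in Ctrl mice, where mice 3342 (22908) and 3346 (19902) stood above all others. Its fold change was -0.46 ± 0.57 among 10 libraries (edgeR adjusted p = 0.614).

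Of the 6 platelet miRNAs, miR-126a-3p was the 1 called among 10 libraries, against 9.98% of all miRNAs, and the median of the list was -0.17. MiR-191-5p had 0.14 ± 0.10 (edgeR adjusted p = 0.378) and miR-21a-5p, the most abundant miRNA in these libraries, had -0.27 ± 0.11 (edgeR adjusted p = 0.143). Endothelial cells, platelets and stem cells all carry miR-126, and which of them gave its signal was not tested. Of 12 inflammatory miRNAs, 0 were called by edgeR, against 9.98% of all miRNAs among 10 libraries, and DESeq2 called 1 there. In either set 3 were higher and 2 lower at an unadjusted p under 0.05 by edgeR. Of all miRNAs at that level, 59 of 505 were higher and 49 lower among 12 libraries. Among 10 libraries 86 of 511 were higher and 68 lower. MiR-132-5p was at 3.56 to 4.79 CPM in CM and at 1.91 to 3.48 CPM in Ctrl, and miR-155-5p had -0.18 ± 0.20 among 10 libraries (edgeR adjusted p = 0.567).

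The vessel wall and muscle list could mark other cells in the sample. Among 10 libraries 2 of its 6 members tested were called, miR-499-5p and miR-145a-3p, against 9.98% of all miRNAs, with a median of 1.81. MiR-145a-3p was at 36.3 CPM in mouse 3370, 6.44 to 9.74 CPM in the other CM mice and 1.27 to 4.23 CPM in Ctrl mice. Its fold change was 2.25 ± 0.51 among 10 libraries (edgeR adjusted p = 0.0281) and 1.32 ± 0.32 without mouse 3370 (edgeR adjusted p = 0.0385), it was called in 4 of the 10 fits with a mouse left out, and among 10 libraries DESeq2 gave it no p. The summed level of all names on the list was 686 to 2438 CPM in CM, highest in mouse 3370, and 166 to 1054 CPM in Ctrl. The most abundant member, miR-143-3p, was at 570 to 1663 CPM in CM and at 135.3 to 892 CPM in Ctrl (0.73 ± 0.50, edgeR adjusted p = 0.357). The epithelial and liver list had 1 of 12 called among 10 libraries, miR-203-3p, near the 9.98% of all miRNAs. The summed level of all its names was highest in mouse 3370 (5312 CPM) and in Ctrl mouse 3335 (3336 CPM), against 1156 to 1914 CPM in the other 10 mice. The part of such cells in the results was not tested.

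**Figure D4:**
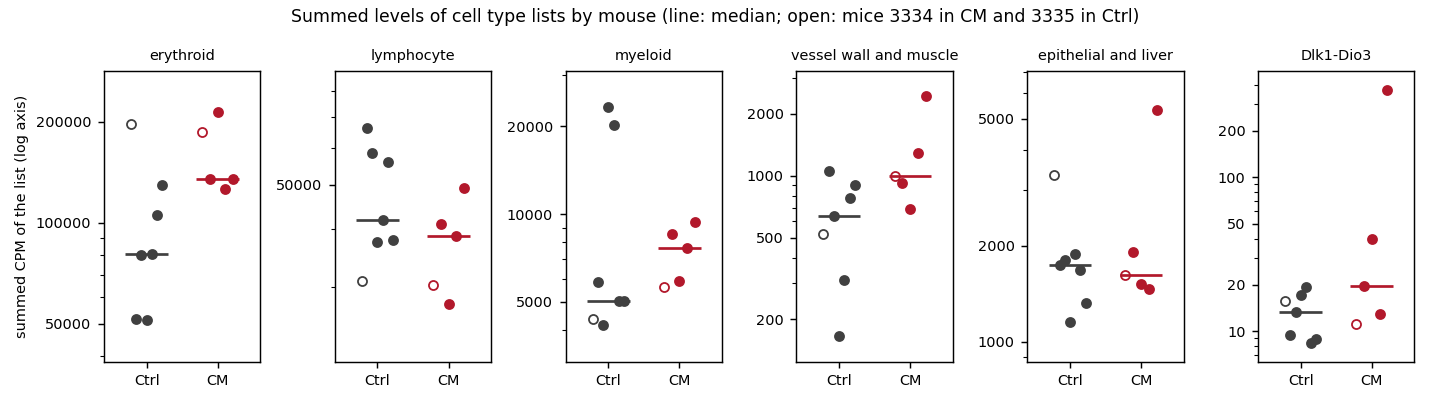
Summed CPM of all names on 6 lists of miRNAs (log axis) in each mouse, by arm (x axis), with a line at the median of the arm and open points for CM mouse 3334 and Ctrl mouse 3335. The erythroid sum is higher in all CM mice than in 5 of the 7 Ctrl mice, the lymphocyte and myeloid sums overlap, and the Dlk1-Dio3 sum has 1 CM point, mouse 3370, at 371 CPM.

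Other lists held few called members. Among 10 libraries 9.98% of all miRNAs were called, so counts of 0 or 1 on the shorter lists lie near that share. Of 20 miRNAs known as tumor suppressors in blood cancers, 1 was called among 10 libraries, miR-29c-3p. At an unadjusted p under 0.05 by edgeR 1 was higher and 6 lower, against 86 higher and 68 lower of all 511 miRNAs. The median of the list was -0.18 against -0.03 for all. Of 21 members of the miR-17 clusters, 1 was called, miR-106b-3p (median -0.07). Of 5 miRNAs of the imprinted Gnas and Mest loci 1 was called, miR-298-5p (0.90 ± 0.21, edgeR adjusted p = 0.0283), and the median was 0.39. None was called by edgeR among 4 regulators of Kit, 9 of the let-7 family and 37 of the Sfmbt2 cluster. These had 0, 1 and 5 members at an unadjusted p under 0.05. The 5 of the Sfmbt2 cluster were lower, with 68 of all 511 miRNAs lower at that level. DESeq2 called 1 of the Sfmbt2 cluster, lower, and 0 of the other lists.

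The count table and the deposited CPM table of the cohort disagreed for some miRNAs. Of 305 miRNAs listed in both with a mean of 10 CPM or more in the count table, 43 varied between tables. Their log2 difference between tables had an SD over the 12 libraries above 0.3. The mature sequence of 20 of the 43 lies at 2 or more loci of the reference and that of 10 had no match, whereas 2 of the 262 others lie at 2 or more loci. MiR-16-5p, which restrains Bcl2 and has the same mature sequence on chromosomes 3 and 14, shows the size of this.
miR-16-5p: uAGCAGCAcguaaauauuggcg
In the count table it ran from 973 to 48826 CPM over the 12 libraries, and in the deposited CPM from 46660 to 62007. Let-7f-5p ran from 2065 to 66050 CPM and from 66750 to 107390, and miR-26a-5p from 10102 to 86179 CPM and from 74948 to 110050. Of the 51 called miRNAs, 38 reached a mean of 10 CPM, and of these 2 disagreed in this way, miR-486a-3p and miR-5107-5p. The rest of the 51 were not assessed. The SD does not register a constant difference, such as that of miR-345-5p, with a mean of 44.1 CPM in the count table and 10.8 in the deposited CPM.

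The deposited CPM values gave whole reads for 100% of values above 0 (within 0.01 reads), so the edgeR fit was repeated on them. It called 66 among 10 libraries, 50 higher and 16 lower, including 45 of the 51. MiR-126a-3p had 1.63 ± 0.25 (edgeR adjusted p = 0.00209) on these reads. MiR-1a-3p, a muscle miRNA, was at 168, 288, 604, 646 and 786 in the deposited CPM of CM mice 3334, 3336, 3341, 3368 and 3370, and at 126.8 to 640, with a median of 154, in Ctrl mice. The Ctrl maximum was mouse 3335 and the other 6 Ctrl mice reached 202. It was called among 10 libraries on these reads (1.96 ± 0.25, edgeR adjusted p = 0.0012) but not in the count table (2.50 ± 1.07, edgeR adjusted p = 0.153), where it ran from 3.93 to 576 CPM. MiR-26a-5p was also called on these reads (0.37 ± 0.10, edgeR adjusted p = 0.0302). MiR-24-3p had -1.16 ± 0.45 in the count table among 12 libraries (edgeR unadjusted p = 0.0254), whereas in the deposited CPM it lay between 10075 and 12460 in every mouse.

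**Figure D5:**
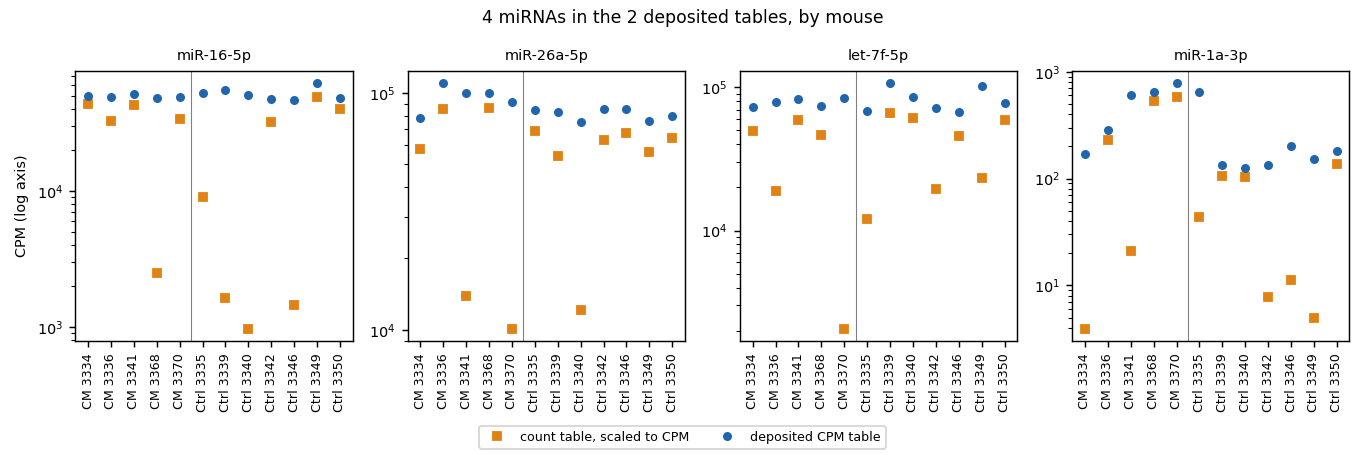
CPM (log axis) of 4 miRNAs in each of the 12 mice (x axis, CM left of the line, Ctrl right) in the count table (orange squares) and the deposited CPM table (blue circles). MiR-16-5p, miR-26a-5p and let-7f-5p drop several-fold in some mice of both arms in the count table only. There the median of miR-16-5p was 33769 CPM in CM and 8960 in Ctrl, against 49163 and 50887 in the deposited CPM. MiR-1a-3p is above the other 6 Ctrl mice in 4 CM mice and in Ctrl mouse 3335 in the deposited CPM.

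The same 12 mice had libraries from month 0, before induction, and month 1. MiR-126a-3p was at 103.1 to 167 CPM in CM and 90.3 to 420 CPM in Ctrl at month 0, at 224 to 421 and 80 to 131.7 at month 1, and at 133.1 to 478 and 82.7 to 250 at month 5, on the scaling of these 3 months together. At month 1 every CM mouse, 3334 included (224), was above every Ctrl mouse, 3335 included (95.4), whereas at month 5 the 2 mice stood at 133.1 and 250. Differences between months were first fitted without the mouse as a block, which takes the libraries of a mouse as independent. In that fit the arm difference at month 5 less that at month 0 was 1.81 ± 0.58 (edgeR unadjusted p = 0.00468, adjusted p = 0.297). Less that at month 1 it was -0.40 ± 0.37 (edgeR adjusted p = 0.891). Neither passed.

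MiR-499-5p was at 5.84 to 11.8 CPM in CM at month 0, 10.9 to 96.4 at month 1 and 18.8 to 49.7 at month 5, and in Ctrl at 3.02 to 8.46, 3.99 to 7.09 and 6.49 to 30.0. Its arms overlapped at month 0 and were apart at month 1. MiR-144-5p was at 3412 to 45394 CPM in CM and 1169 to 2291 in Ctrl at month 1, again with mouse 3334 (3412) and mouse 3335 (2253) on the side of their labels. Its difference at month 5 less that at month 1 was -2.27 ± 0.76 (edgeR without the mouse as a block, unadjusted p = 0.0069, adjusted p = 0.577).

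MiR-1249-3p was at 104.5 to 142 CPM in CM and 83.1 to 215 in Ctrl at month 0, at 36.6 to 118.4 and 84.6 to 194 at month 1, and at 41.2 to 67.2 and 50.1 to 149 at month 5. Across all miRNAs, the arm difference at month 5 differed from that at month 0 for 0 of 554 (0%) and from that at month 1 for 0 of 552 (0%) by edgeR, with 66 and 34 at an unadjusted p under 0.05. DESeq2 called 2 against month 0. With the mouse as a replicate block, 0 were called in both, with 43 and 24 at an unadjusted p under 0.05. The comparisons of months share the month 5 libraries, so their values stand side by side and are not independent.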

How the data were processed

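Small RNA libraries were made from PBMC RNA, and the authors trimmed adapters with cutadapt, aligned reads with Bowtie and scaled with edgeR. The labels name GRCm38 and the methods of the study name mm9, so the build is not settled, and coordinates here are those of RefSeq. The deposited raw counts per mature miRNA (mirTOP, settings not given in the sources used here) were whole numbers for 1863 names, and 1558 had at least 1 count in the 12 libraries. The deposited CPM of the authors, for 1895 names, is a TMM-scaled signal and not a share of a fixed total. Every value above 0 was a whole number of reads (100%, within 0.01 reads). The validation cohort was not used.

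Arms came from the labels. Counts were tested with edgeR 4.0.16 (R 4.3.3; quasi-likelihood F test, robust, TMM, filterByExpr), with Benjamini-Hochberg adjustment over all miRNAs tested and 0.05 as threshold. Alternatives were DESeq2 1.42.0, limma 3.58.1 (trend, on log2(CPM + 1) or + 0.1), other scalings and filters (none, or a minimum of 10 counts), sex, G number, all 129 training libraries, each mouse left out, and, chosen after seeing the data, recovered reads, no robust estimation, no erythroid miRNAs, and no mice 3335 and 3370. Single values were compared by exact permutation (numpy 2.4.6, pandas 2.3.3, scipy 1.17.1). Interactions with months 0 and 1 used the same mice. Their main fit had no term for the mouse, and an alternative took the mouse as a block. Same-mouse correlations of deviations were -0.304 to 0.419.

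The comparison, lists and rule were chosen with earlier results of these data known. Named were both miR-126a strands, the 10 lowest p among 12 libraries, up to 10 called miRNAs per direction with the largest change among 10 libraries (all at a mean of 10 CPM or more), the 3 most abundant members of each list and the 5 most abundant miRNAs; others named in the text were list members, called miRNAs, or were picked after their values were seen. On simulated data edgeR recovered 81.8% of miRNAs changed by 1 on the log2 scale among 12 libraries (517 miRNAs tested) and 78.8% among 10 (529), and 49% and 48% in the interactions with months 0 (541) and 1 (540), and 7.18%, 1.12%, 3.97% and 0.685% of its calls were of unchanged miRNAs in these 4 comparisons. The simulated counts had the same dispersion for every miRNA, no aberrant mice and no tie between the months of a mouse. The simulated shares thus do not measure how much edgeR recovers in the data. No pair of libraries had identical counts (0 pairs).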

Additional observations from a re-analysis of the deposited data

Results flagged for a closer look

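For each named miRNA and arm, the highest or lowest mouse was compared with the others by the gap to its nearest neighbor as a share of the range, and 14 values, 10.3% of the groups tested, were above the 95% critical value (0.71 for 5 libraries, 0.568 for 7). For groups chosen without regard to their values, chance gives about 1 in 20. Many of these miRNAs were named by their values in the same libraries, and linked miRNAs count as separate groups. The 10.3% thus cannot be read as more than chance gives. Ctrl mouse 3335 was high for miR-126a-5p (gap share 0.604) and miR-499-5p (0.589), and CM mouse 3334 was low for miR-1943-5p (0.84) and high for miR-15a-5p (0.785). CM mouse 3370 was high for miR-127-3p (0.781), miR-200c-3p (0.798) and miR-200a-3p (0.788), and CM mouse 3341 was high for miR-486a-5p (0.713) and miR-486b-5p (0.8) and low for miR-29a-3p (0.8) and miR-362-5p (0.861). CM mouse 3368 was low for miR-16-5p (0.895), Ctrl mouse 3340 for miR-26a-5p (0.862) and Ctrl mouse 3350 for miR-92a-3p (0.657), and all 3 miRNAs are among those for which the tables disagreed. In the deposited CPM the values were 48047 for miR-16-5p against 48553 to 51693 in the other CM mice, 74948 for miR-26a-5p against 76056 to 85675 in the other Ctrl mice, and 6624 for miR-92a-3p, the Ctrl median.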

How the results depend on the processing

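Among 12 libraries the count of 0 called miRNAs became 21 with DESeq2, 18 with all training libraries in the fit and 31 without mice 3335 and 3370, and with each mouse left out it ran from 0 to 46 (46 without Ctrl mouse 3335, 4 without CM mouse 3368). It was 0 under the other scalings and filters, sex, G number, limma-trend, no robust estimation, recovered reads and the fit without erythroid miRNAs. Among 10 libraries the 51 calls became 83 with DESeq2, 10 with G number as a covariate and 33 by limma-trend with no filter, and with each mouse left out 3 to 60 (3 without CM mouse 3336 or 3341, 10 without Ctrl mouse 3339, 7 without 3340, 23 without 3342, 6 without 3349), and the other 15 of 24 alternatives stayed within 1.5 times. The cause of these changes was not tested. Of the single named miRNAs, none changed direction where it was called. The interaction with month 0 gave 0 calls by edgeR and 2 with DESeq2, that with month 1 gave 0 under every alternative, and with each mouse left out both gave 0. With the mouse as replicate block both gave 0, also without mice 3334 and 3335, so the pairing changed no call. The log2 total count difference was -0.02 to 0.07 and the miR-126a-3p difference in the deposited CPM 0.87 to 1.34 with each mouse left out, on the same side of the threshold.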
